A study of Homo sapiens with 3 samples.

Results

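SNRPN lies in the imprinted Prader-Willi and Angelman interval of human chromosome 15 and encodes the spliceosomal protein SmN. Its H3K9me3 regions were taken from the deposited region lists as every entry on chromosome 15 whose gene list holds SNRPN. This gave 36 of the 26938 regions of the control library and 37 of the 27178 regions of the CXCL12 library, or 73 of 54116 in all. They lay between 25023800 and 25679999 of hg19, a span of 656.2 kb. The locus itself was chosen by the mean signal of its regions, which earlier results of these data had shown to be very high over the snoRNA repeats, so its levels are a description and no test.

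Trimethylation of lysine 9 on histone H3 (H3K9me3), a mark of heterochromatin, was mapped by immunoprecipitation of chromatin and sequencing in Jurkat, an established human T cell leukaemia line. All cells were first starved of serum for 90 min. One library came from cells then given CXCL12, a chemoattractant also called SDF, at 100 ng/ml for 15 min, and one from cells left unstimulated. Both shared the same antibody and fixation in 1% formaldehyde, and the input library of the series was not analysed here. With 1 library in each group there was no replicate check, and a difference between the libraries can hold the treatment and the preparation alike.

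The interval is expressed from one parental allele only in many of its genes. On the paternal chromosome a long transcript starts near SNRPN and passes the SNURF start. It can extend over the C/D box snoRNA arrays SNORD116 and SNORD115 and reach UBE3A from the opposite side. How far it extends in Jurkat cells was not measured here. The CpG island at the SNURF and SNRPN start is part of the imprinting centre and is methylated on the maternal chromosome. SNURF is a small protein encoded upstream of SmN in the same transcript, SNHG14 is the host transcript of the snoRNAs, and UBE3A is a ubiquitin ligase expressed from the maternal allele in neurons. The deposited values do not separate the alleles.

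Promoter windows of 300 bases are shown for the 3 starts around which the regions are described: the far upstream start of SNHG14, the SNURF start at the imprinting centre, and the UBE3A start at the other end. They run from 250 bases before to 50 after each RefSeq start in GRCh38.p14, whereas all region coordinates here are hg19. The SNHG14 window is chr15:24823358-24823657 on the plus strand, the SNURF window, which RefSeq also lists under SNRPN, is chr15:24954737-24955036 on the plus strand, and the UBE3A window is chr15:25438975-25439274 on the minus strand. Capitals mark the dinucleotide CG, which reads the same on both strands.
SNHG14: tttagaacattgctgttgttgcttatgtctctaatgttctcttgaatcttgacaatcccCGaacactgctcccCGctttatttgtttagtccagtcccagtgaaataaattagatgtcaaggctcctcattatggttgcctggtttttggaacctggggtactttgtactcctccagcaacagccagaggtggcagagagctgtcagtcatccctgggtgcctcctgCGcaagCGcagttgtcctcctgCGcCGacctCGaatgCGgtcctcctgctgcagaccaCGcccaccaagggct
SNURF: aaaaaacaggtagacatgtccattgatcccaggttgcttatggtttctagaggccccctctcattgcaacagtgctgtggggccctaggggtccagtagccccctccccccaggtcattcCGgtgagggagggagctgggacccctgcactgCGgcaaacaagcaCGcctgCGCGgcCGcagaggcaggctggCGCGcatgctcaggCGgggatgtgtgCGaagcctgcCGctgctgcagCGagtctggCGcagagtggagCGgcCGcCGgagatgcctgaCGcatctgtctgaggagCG
UBE3A: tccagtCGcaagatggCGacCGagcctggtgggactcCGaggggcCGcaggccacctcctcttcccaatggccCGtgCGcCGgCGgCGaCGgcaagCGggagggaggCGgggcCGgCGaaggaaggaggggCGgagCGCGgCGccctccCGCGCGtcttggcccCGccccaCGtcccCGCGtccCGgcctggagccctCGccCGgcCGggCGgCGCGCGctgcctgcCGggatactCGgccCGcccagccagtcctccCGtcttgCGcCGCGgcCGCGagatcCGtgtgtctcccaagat

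The SNHG14 window held 9 CG, the SNURF window 18 and the UBE3A window 44. Over all 35116 RefSeq windows of this length the median was 14, and 96.0% held at least 1. As many CG as at SNHG14, SNURF and UBE3A, or more, were found in 58.4%, 44.5% and 4.19% of windows. In RefSeq the SNRPN gene starts 29 bp after SNHG14. The deposited lists do not name SNHG14, so their SNRPN start is given in its place. The annotated starts of SNRPN (25068794) and SNURF (25200070) lay inside an H3K9me3 region in both libraries. That of UBE3A (25684128), with the densest CG of the 3, lay outside, 4129 bp from the nearest region in the control library and in the CXCL12 library.

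Most of the locus was covered by moderate H3K9me3, with 2 blocks of very high signal over the snoRNA arrays. The regions covered 483.2 kb in the control library and 548 kb in the CXCL12 library. Part of that gap is annotation: the first CXCL12 region carries SNRPN, but 2 control regions under it, 25025000 to 25032399 and 25033600 to 25057599, carry no gene. Counting every region in the span, the lengths were 514.6 and 548 kb, or 78.4% and 83.5% of it. A median gap of 1200 bp separated neighbouring control regions and 1300 bp those of the CXCL12 library, and the widest gaps were 24.6 and 16.8 kb.

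Each region has 2 signal values from the authors, a mean over its bins, which measure 32.9 bp at the median, and a highest bin. Neither the scale nor the sequencing depth behind them is known here. Over all bins of the SNRPN regions the mean signal was 17.1 in the control library and 16.8 in the CXCL12 library, against 6.75 and 6.83 over all regions of each library. With the 2 control regions in the span that carry no gene, the control mean was 16.4. The single regions were mostly ordinary: their median mean signal was 4.66 and 5.18, beside 5.06 and 5.10 over each library, and 15 of 36 and 19 of 37 lay above their library's median. Without the 2 arrays the mean over bins was 5.40 and 5.64. The arrays therefore held 81.7% of the signal of the SNRPN regions in the control library and 79.1% in the CXCL12 library, on 41.5% and 37.1% of their length. The control shares leave out the same 2 regions. With them, SNORD116 held 30.9% and SNORD115 48.7% of the control signal, against 31.8% and 47.3% in the CXCL12 library.

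**Figure D1:**
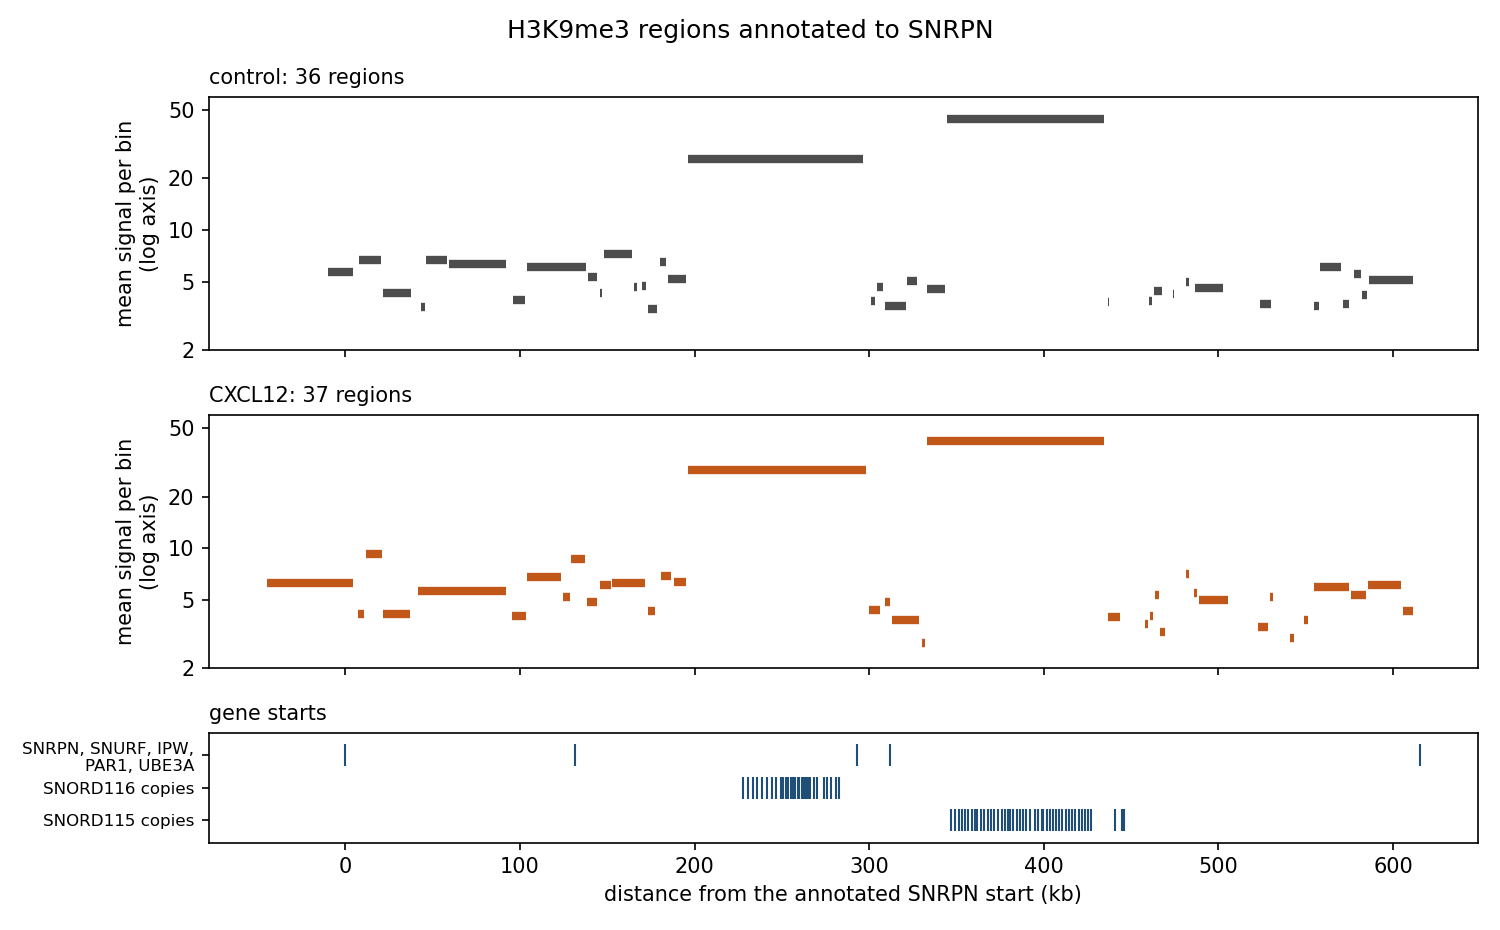
Each horizontal segment is a region annotated to SNRPN, drawn over its length (x axis, kb from the annotated SNRPN start) at its mean signal per bin (y axis, log scale), with gene starts in the lowest panel. The regions over the SNORD116 and SNORD115 copies lie at 25.8 and 44.3 in the control library and at 28.495 and 42.3 in the CXCL12 library, and all others lie below 10.

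Joining all regions that overlapped by 1 bp or more gave 28 SNRPN loci, of which 23 held regions of both libraries, 1 of the control library only and 4 of the CXCL12 library only. Over all chromosomes, 12.2% of loci were called in the control library only and 14.6% in the CXCL12 library only. The loci are described in map order, and the mean signal of a locus is that over the called bins of the library named.

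The stretch from before SNRPN to the SNURF start held 5 loci with broad, moderate signal. The locus over the annotated SNRPN start, 25023800 to 25073199, covered 45.8 kb at a mean signal of 6.34 in the control library and 49.4 kb at 6.27 in the CXCL12 library. Its highest bins were 31 and 41, and the control values include the 2 regions that carry no gene. It was followed by a locus from 25076200 to 25089799 with 12.6 kb at 6.75 and 12.6 kb at 7.86. In the CXCL12 library this locus was split, and its 9.0 kb piece had a mean of 9.26, above every other SNRPN region outside the arrays in either library. The next locus, 25090600 to 25106199, overlapped a CpG island and was weaker, with 15.6 kb at 4.28 and 15.2 kb at 4.13.

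A longer locus from 25110400 to 25160799, also with a CpG island, had a mean signal of 6.27 over 46.8 kb in the control library and 5.66 over 50.4 kb in the CXCL12 library. The control library had it in 3 regions and the CXCL12 library in 1. Its log2 ratio of mean signal, CXCL12 over control, was -0.15, the lowest of the 23 shared loci. The last locus of the stretch, 25164400 to 25172199, had 7.4 kb at 3.92 and 7.8 kb at 4.03. Across the 5 loci the mean over bins was 5.97 in the control library and 5.84 in the CXCL12 library, a log2 ratio of -0.03.

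The locus at the imprinting centre, 25172800 to 25206599, held the SNURF start, a CpG island and an annotated promoter. The control library had a single region of 33.8 kb with a mean signal of 6.08, and the CXCL12 library 3 regions that together covered 31.6 kb at 7.05, a log2 ratio of 0.21. The highest bin was at 25201792 in both libraries, 1722 bp inside SNURF, with a value of 29 in the control library and 41 in the CXCL12 library. No other shared SNRPN locus had its highest bin at an identical position, and 5 of the 23 had them within 100 bp. The CXCL12 region that holds that bin, 8.0 kb from 25198200 to 25206199, had a mean of 8.69.

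Between SNURF and the SNORD116 array lay 4 loci. The first, 25207000 to 25212799, had 5.2 kb at 5.33 in the control library and 5.8 kb at 4.90 in the CXCL12 library. The second, 25214400 to 25240799, holds the starts of the single-copy snoRNAs SNORD107, SNORD64 and SNORD108 and of the non-coding transcripts PAR-SN and PAR5. It covered 21.0 kb at a mean signal of 6.62 in the control library and 25.4 kb at 6.25 in the CXCL12 library. The single-copy snoRNAs thus lay in signal of the same order as the rest of the gene, far under that of the arrays.

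The other two loci before the array had higher means in the CXCL12 library. From 25242000 to 25247199 the mean was 3.46 over 5.2 kb in the control library and 4.31 over 4.4 kb in the CXCL12 library. From 25248800 to 25263999 it was 5.55 over 14.2 kb and 6.60 over 12.8 kb. In both, the CXCL12 regions were shorter, so a higher mean went with fewer bins. The summed signal was also higher there, 529 (control) and 539 (CXCL12) at the first and 2431 and 2621 at the second.

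The SNORD116 array, a tandem set of C/D box snoRNAs within the smallest deletions known in Prader-Willi syndrome, was under 1 unbroken region in each library. It ran from 25264800 for 100.2 kb in the control library and for 102.0 kb in the CXCL12 library, with mean signals of 25.8 and 28.495, a log2 ratio of 0.14. All 29 copies, which start between 25296623 and 25351667, began inside it in both libraries. The region was wider than the array: it began 31.8 kb before the first copy and ended 13.3 kb (control) or 15.1 kb (CXCL12) after the start of the last. The starts of SNORD109A, another snoRNA, and of IPW, a non-coding transcript, also lay in it.

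Signal over the SNORD116 region was uneven. Its highest bin reached 121 in the control library and 143 in the CXCL12 library, 4.69 and 5.02 times the mean of the region. Over all regions of at least 50 kb the median of this multiple was 4.63 and 4.58, so SNORD116 lay near other long regions. The highest bins of the libraries were 64 bp apart, 6.74 and 6.80 kb after the first copy. They sat between SNORD116-3 and SNORD116-4, 1354 and 1418 bp after the start of SNORD116-3. The copies are spaced by 1871 bp at the median (820 to 3626). Reads from near-identical copies can be placed on any of them, so levels between copies of either array are uncertain. The treatment of such reads is unknown here. Whether it affects the level of each array as a whole, and so its rank among regions, was not tested.

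Past the SNORD116 region, which holds the IPW start, signal returned to a low level. The next regions carry IPW or PAR1, both non-coding transcripts of the interval. The locus from 25368600 to 25376599 had 6.2 kb at 4.33 in the control library and 6.6 kb at 4.37 in the CXCL12 library. That from 25377600 to 25397399, with the PAR1 start, had 17.2 kb at 4.09 and 19.0 kb at 4.02. Another locus, 25399000 to 25400999, was called in the CXCL12 library only. It had a mean of 2.81, and 1.2% of that library's regions lay lower. Over these loci the mean over bins was 4.15 in the control library and 4.02 in the CXCL12 library, the lowest of the stretches described here.

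The SNORD115 array, snoRNAs with complementarity to the serotonin receptor 2C transcript, had the highest mean signal of the locus. In the control library it was called as 2 regions, 10.0 kb at a mean of 4.53 from 25402200 to 25412199 and 90.2 kb at 44.3 from 25413200 to 25503399. The first of these holds no SNORD115 start. The CXCL12 library had a single region over both, so its lower mean, 42.3, is taken over the weak 10.0 kb as well. Over the same locus the log2 ratio was 0.07, with highest bins of 104 and 107.

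The files list 47 SNORD115 copies between 25415870 and 25514930, spaced by 1876 bp at the median, and 44 of them start in the strong region in both libraries. In the control library it begins 2.67 kb before the first copy, and in both libraries it ends 7.39 kb after the start of copy 44. The highest bin was 2.35 and 2.53 times the mean of the region, a lower multiple than for the SNORD116 region. The median was 4.63 and 4.58 over all regions of at least 50 kb. The SNORD116 mean takes in more sequence outside the copies, 31.8 kb before the first copy in both libraries. The multiples therefore do not compare evenness over the copies alone. The highest bins of the 2 libraries were 3632 bp apart and lay between different copies, 1328 bp after the start of SNORD115-36 in the control library and 1394 bp after that of SNORD115-34 in the CXCL12 library.

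Both arrays stood at the top of the long regions of their library. Among the 87 control regions of at least 50 kb, with a median mean signal of 11.8, SNORD115 had rank 1 and SNORD116 rank 2. The next, a cluster of zinc finger genes around ZNF417 on chromosome 19, had a mean of 20.2. Among the 90 such CXCL12 regions SNORD115 again had rank 1 and SNORD116 rank 3, behind a region without genes on chromosome 21 at 29.0. Counting regions of every length, SNORD115 had rank 3 in the control library and rank 5 in the CXCL12 library by mean signal, and SNORD116 ranks 25 and 20.

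**Figure D2:**
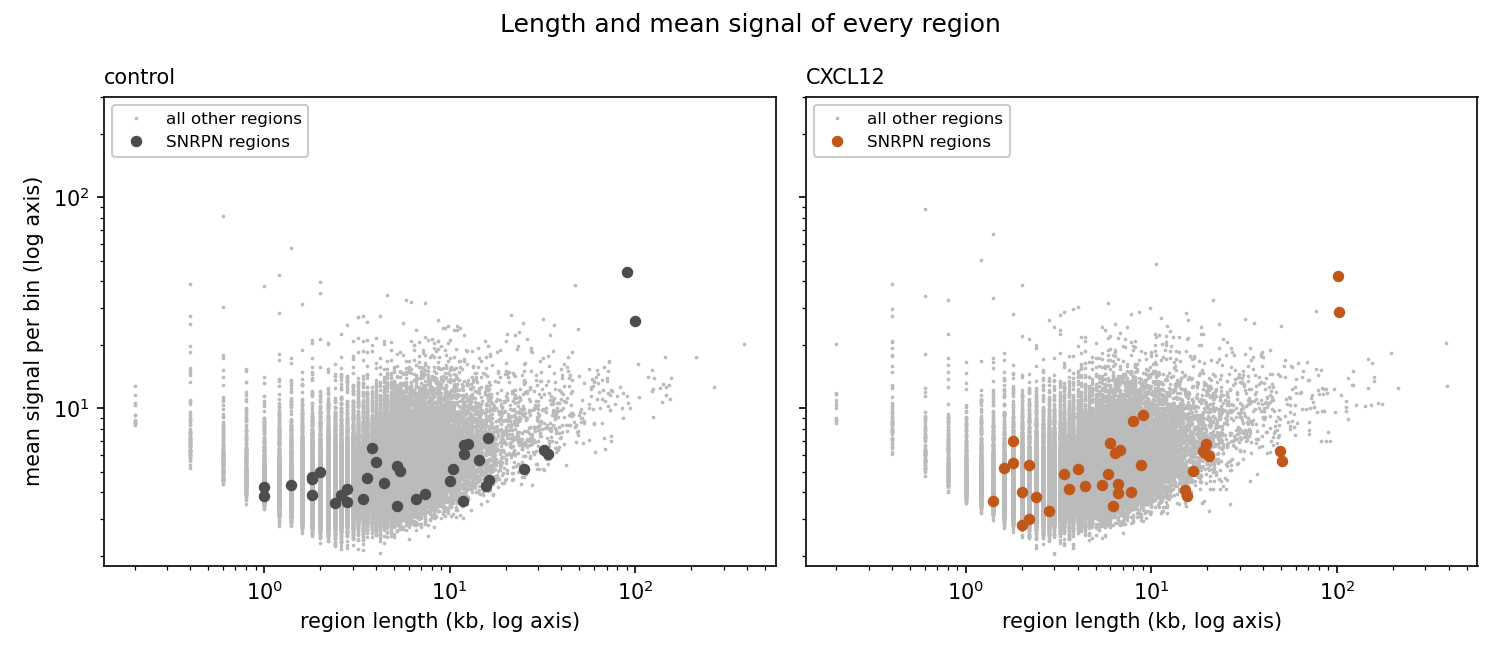
Length (x axis, kb, log scale) against mean signal per bin (y axis, log scale) for every region of the control library (left) and the CXCL12 library (right), with the SNRPN regions as large points. The 2 large points at the upper right of each panel are the SNORD116 and SNORD115 regions, at 25.8 and 44.3 in the control library and 28.495 and 42.3 in the CXCL12 library; the other SNRPN regions lie within the cloud or at its lower edge.

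Beyond the main SNORD115 region the gene was sparsely covered, by 10.2 kb in the control library and 16.8 kb in the CXCL12 library over 6 loci, with a mean over bins of 4.36 and 4.37. The first of these, 25505400 to 25512399, lies at the last, detached SNORD115 copies and was 1.0 kb at 3.83 in the control library and 6.6 kb at 3.99 in the CXCL12 library. It was the only shared SNRPN locus to differ in length by 2-fold or more, and it did so towards the CXCL12 library, as 5.55% of all shared loci did, against 2.85% towards the control. It was also the only one 2-fold apart in summed signal, where 2.84% of all shared loci were higher in the CXCL12 library and 0.998% lower. The start of the copy HBII-52-45 (25509674) lay in the CXCL12 region and in no control region. HBII-52-46, SNORD115-48 and SNORD109B started outside regions in both libraries.

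The next loci were short. From 25527000 to 25528399 only the CXCL12 library had a region, 1.4 kb at 3.64, and from 25542600 to 25543599 only the control library, 1.0 kb at 4.23. From 25529200 to 25531599 the mean was 3.88 over 1.8 kb in the control library and 4.02 over 2.0 kb in the CXCL12 library. From 25531800 to 25538199 it was 4.41 over 4.4 kb and 4.21 over 5.0 kb. The remaining one, 25550200 to 25552199, had the highest ratio of all shared SNRPN loci: a mean of 4.98 over 2.0 kb in the control library and of 7.04 over 1.8 kb in the CXCL12 library, a log2 ratio of 0.50, with highest bins of 8 and 12. It is among the shortest of the 23, so few bins stand behind that ratio.

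The distal end of the locus overlaps UBE3A and held 7 loci, covering 73.0 kb in the control library and 85.0 kb in the CXCL12 library, with a mean over bins of 4.91 and 5.33. All 5 loci called in both libraries had the higher mean in the CXCL12 library. From 25555000 to 25574399 it was 4.59 over 16.2 kb and 5.08 over 18.6 kb, and from 25591200 to 25599799 it was 3.74 over 6.6 kb and 3.83 over 7.8 kb. From 25623400 to 25643799 it was 5.25 over 18.2 kb and 5.92 over 20.4 kb. The log2 ratios of these 5 loci, 0.04 to 0.17, lay within the middle 50% of all shared loci, -0.12 to 0.20.

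From 25644600 to 25653799 the mean was 4.99 over 6.8 kb in the control library and 5.37 over 8.8 kb in the CXCL12 library. The last locus, 25654200 to 25679999, had 25.2 kb at 5.15 and 24.8 kb at 5.78. The other two, 25609800 to 25611999 and 25617600 to 25619999, were called in the CXCL12 library only, with 2.2 kb at 3.00 and 2.4 kb at 3.80. All 4 loci of the CXCL12 library alone were thus weak, with means of 2.81 to 3.80 against that library's median of 5.10.

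Between the libraries the locus as a whole differed little. None of the 23 shared loci was 2-fold apart in mean signal, a size reached by 0.116% of all 21541 shared loci towards CXCL12 and by 0.176% towards the control. None was 1.5-fold apart either, where 2.28% of all shared loci were higher and 1.92% lower. For the highest bin, too, 0 of 23 were 2-fold apart, against 0.696% of all shared loci higher and 0.279% lower. The mean was higher in the CXCL12 library at 16 loci and lower at 7, where 57% of all shared loci were higher. The log2 ratios ran from -0.15 to 0.50 with a median of 0.06, against 0.04 over all shared loci. The highest bin was higher in the CXCL12 library at 16 loci, lower at 6 and equal at 1, where 52.4% of all shared loci were higher. At 7 loci the mean and the highest bin pointed in opposite directions.

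Covered length differed by about as much as over the whole list. It was longer in the CXCL12 library at 16 of the 23 loci, shorter at 6 and equal at 1, where 55% of all shared loci were longer, and the median log2 ratio of length was 0.11 against 0.07 over all shared loci. Where the regions were cut also differed: 10 loci had as many regions in both libraries, 7 had more in the control library and 6 more in the CXCL12 library. Since 14 of 35 gaps in the control library and 16 of 36 in the CXCL12 library were 1000 bp or shorter, the number of regions depends on how neighbouring windows were joined.

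**Figure D3:**
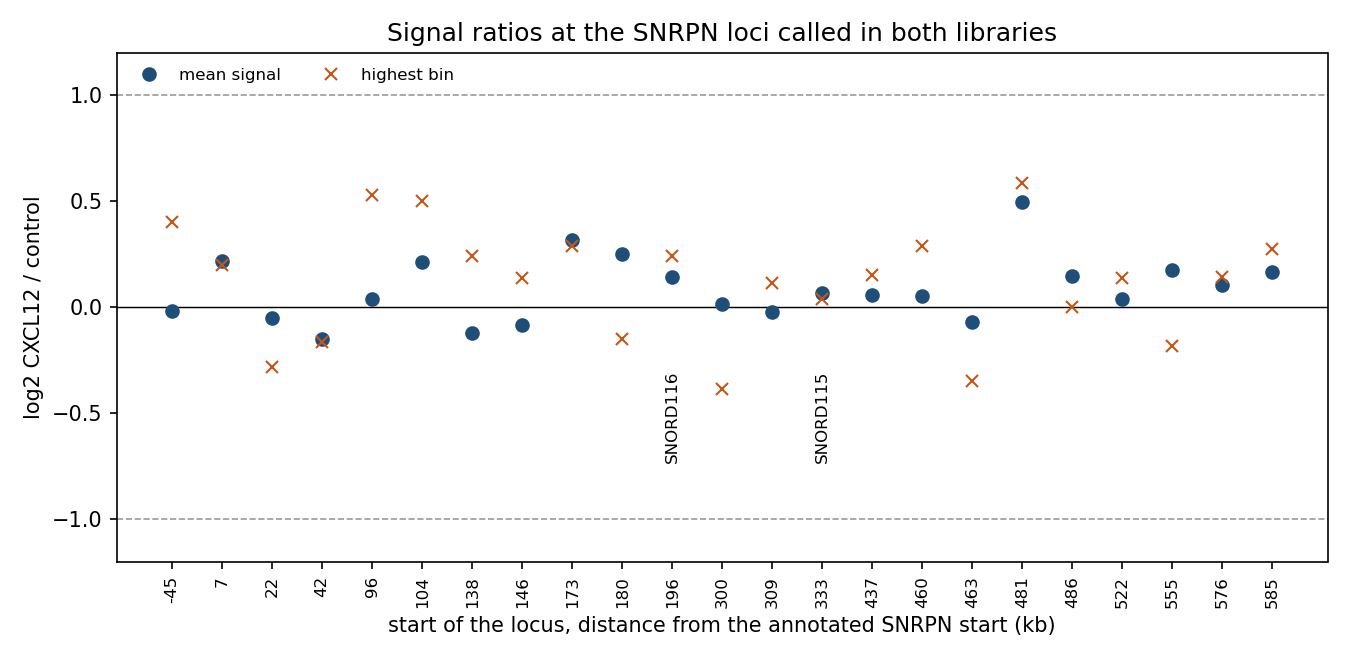
Log2 ratio of CXCL12 over control (y axis) of the mean signal (circles) and of the highest bin (crosses) at the 23 shared SNRPN loci in map order (x axis, start of the locus in kb from the annotated SNRPN start), with dashed lines at 2-fold. The means lie between -0.15 and 0.50 and the highest bins between -0.39 and 0.58, all inside the dashed lines.

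The SNRPN regions were set beside the other regions of chromosome 15 from 2.07 Mb before to 3.43 Mb after the annotated SNRPN start, 159 in the control library and 165 in the CXCL12 library. By gene list, SNRPN held 35.8% and 36.9% of the covered length of this interval and 63.1% and 63.6% of its summed signal. The 2 control regions without a gene under the first CXCL12 region count here among the other regions. Counting every region in the span, the lengths were 514.6 of 1349 kb (control) and 548 of 1483.8 kb (CXCL12). The summed signals were then 258643 of 400167 and 280648 of 440984. Both shares were then higher in the control library. Away from the arrays the levels were alike: the mean over bins was 5.40 and 5.64 in the SNRPN regions without the arrays and 5.70 and 5.72 in the other regions. The highest mean of any other region was 14.5 in the control library and 12.8 in the CXCL12 library, both over OCA2, the pigmentation gene. Of the 116 other loci of the interval called in both libraries, 1 was 2-fold higher in the CXCL12 library and 0 were 2-fold lower. Over all shared loci these shares were 0.116% and 0.176%. The median log2 ratio was 0.07, against 0.04 over all shared loci. Of all 174 other loci of the interval, 21 were called in the control library only and 37 in the CXCL12 library only. Over all chromosomes these were 12.2% and 14.6% of loci.

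**Figure D4:**
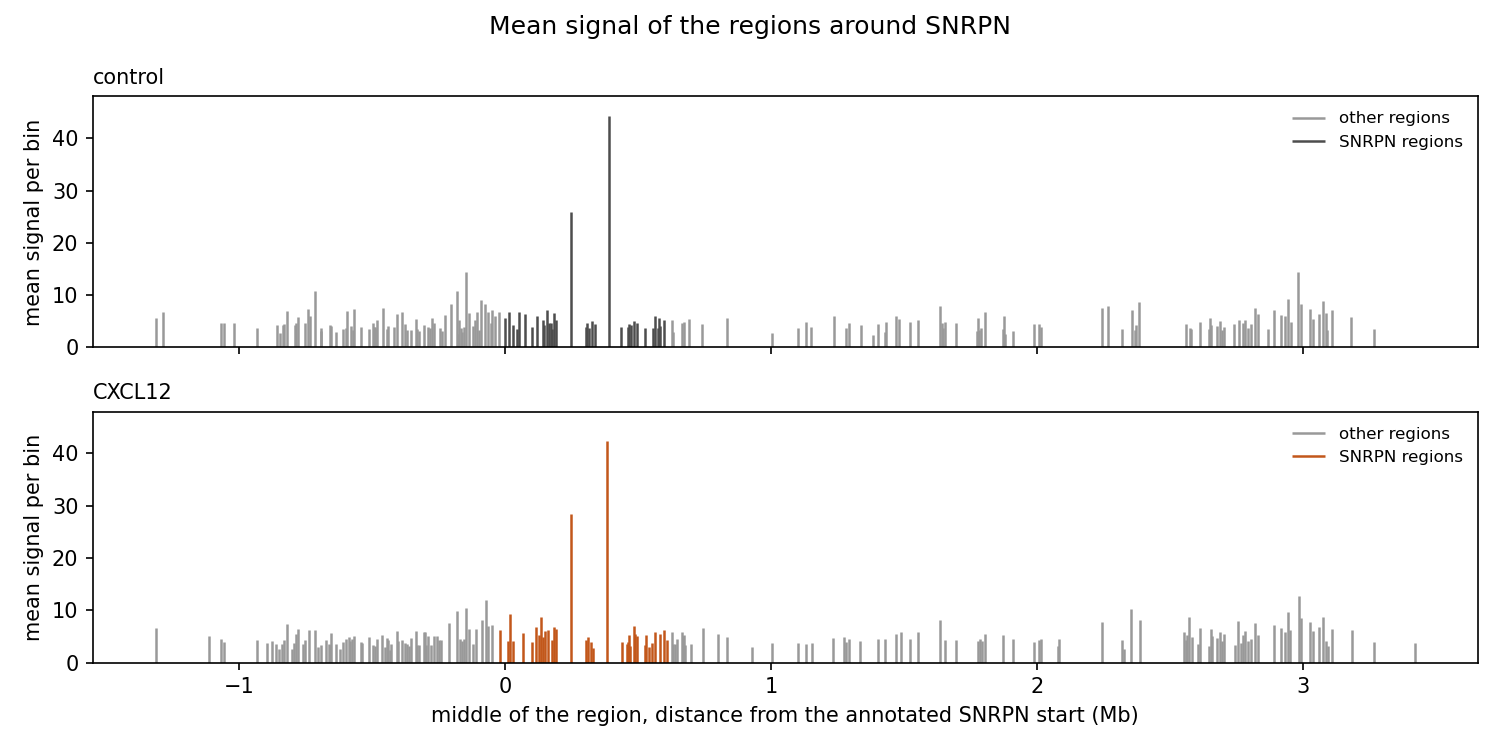
Mean signal per bin (y axis) of every region from 2.07 Mb before to 3.43 Mb after the annotated SNRPN start, as a line at the middle of the region (x axis, Mb from the annotated SNRPN start), with SNRPN regions in dark grey (control) or orange (CXCL12). The SNORD116 and SNORD115 regions exceed all others, whose highest mean is 14.5 in the control library and 12.8 in the CXCL12 library.

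Regions were also called on both sides of the span. Before it, a region without genes lay 1000 bp away in the control library (25015000 to 25022799, mean signal 7.08) and 1800 bp away in the CXCL12 library (25012800 to 25021999, mean 7.17). After it, the nearest regions were farther away, past an uncalled stretch that holds the UBE3A start. A control region from 25694600 to 25696799, 14600 bp after the span, had a mean of 5.19 and carries no gene. A CXCL12 region from 25692600 to 25696599, 12600 bp after it, had a mean of 5.77 and carries UBE3A only. The annotation places 35 of 36 control regions in SNRPN and 1 upstream of it, and 34 of 37 CXCL12 regions in it, 1 upstream and 2 downstream, without saying whether they are exonic or intronic. It draws SNRPN longer than RefSeq does now. In 26 control regions and 25 CXCL12 regions the highest bin lies farther from the deposited SNRPN start than the 155.1 kb length of SNRPN in GRCh38.p14, where the host transcript SNHG14 extends over 595.9 kb.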

How the data were processed

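The series measured H3K9me3 by chromatin immunoprecipitation in Jurkat cells, with 1 library per group, grouped by the treatment label. Per the submitters' processing notes, the tools were BWA 0.7.12 and SICER 1.1 and the build was hg19. Their settings, the read numbers and any scaling or input correction are not stated in the sources used here. Depth is therefore unknown, and no counting interval was given. The deposited signal values are, per the file headers, the mean over a region's bins and its highest bin; other deposited columns give length, bins, CpG islands, promoters and genes. Starts move in steps of 200 bp. Coordinates are as deposited, with no statement of whether they count from 0 or 1, and lengths include both ends. Gene starts were derived from the deposited highest bin and its distance to each gene.

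Regions were chained into loci over the whole table where they shared at least 1 bp, with Python 3.11.15, pandas 2.3.3 and NumPy 2.4.6. The step was tested on simulated, well separated loci with equal outer bounds in both libraries. Close loci and staggered bounds were not tried. Ratios are log2 of CXCL12 over control with no pseudocount, and 2-fold was the rule of size; with 1 library per group no p-value was computed. Every SNRPN region was described in map order, and other genes came from a list for the interval, not all of which is reported here. The members and lists were chosen with earlier results of these data known. Of 81 snoRNA names, 81 matched RefSeq. Alternatives were the highest bin, summed signal, a pseudocount of 1, a 1.5-fold rule, centring, stricter overlap, matched length, regions at or above the median signal, regions inside SNRPN, and leaving out SNORD115. All regions in the span, regions joined within 1000 bp, and signal per bp were chosen after seeing the data.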

Additional observations from a re-analysis of the deposited data

How the results depend on the processing

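No paired analysis was possible because each group has 1 library, and for the same reason no library could be left out. The 36 control and 37 CXCL12 regions became 15 and 19 at or above the median signal, and 22 and 21 when joined across 1000 bp. The log2 ratio of covered length, 0.18, was 0.015 for regions inside SNRPN only, 0.091 for all regions in the span, 0.21 at or above the median signal and 0.22 without SNORD115. The log2 ratio of mean signal over all bins was -0.021, and it was -0.019 with a pseudocount of 1, -0.029 per bp and -0.061 when centred on all shared loci. It was above 0 in other settings: 0.057 as a plain mean over regions, 0.12 for the highest bin, 0.012 without SNORD115 and 0.033 for all regions in the span. The last setting differs from the main one only by the 2 control regions without a gene, at means of 5.96 and 6.84. With them the control mean over bins was 16.4 and not 17.1. For the other settings the cause was not tested. The median ratio over shared loci, 0.058, stayed above 0: 0.14 for the highest bin, 0.16 for summed signal, 0.046 with the pseudocount, 0.017 centred, 0.079 with 50% reciprocal overlap, 0.052 for loci of 1 region per library and lengths within 1.2-fold, and 0.080 per bp. The number of shared loci 2-fold apart, 0, became 1 for summed signal, the locus of the last SNORD115 copies, and was 0 in mean signal also at 1.5-fold. For SNORD115 the ratio of 0.067 was 0.041, 0.075, 0.065, 0.027 and 0.060 for the highest bin, summed signal, pseudocount, centring and signal per bp. The share of the interval's covered length, 35.8% and 36.9%, was 44.7% and 46.2% at or above the median signal, and by summed signal 63.1% and 63.6%. All these shares leave out the 2 control regions without a gene. Counting every region in the span, the lengths were 514.6 of 1349 kb in the control library and 548 of 1483.8 kb in the CXCL12 library. The depth of the libraries is unknown, which limits all ratios and lengths.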

Other observations

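Other genes of the interval differed in coverage. MKRN3, MAGEL2 and NDN, the paternally expressed genes at its proximal end, were named by 0 regions in either library. C15orf2, now NPAP1, was named by 3 control and 3 CXCL12 regions, with a highest mean signal of 14.4 and 10.5. The non-coding PWRN1 was named by 4 and 5 regions and PWRN2 by 2 and 3. ATP10A, a phospholipid flippase gene beyond UBE3A, was named by 1 and 2 weak regions, with highest means of 2.84 and 3.72. GABRG3, a GABA type A receptor gene, was named by 18 and 19 regions, and GABRA5, another, by 0 and 2. OCA2 was named by 15 in each library and HERC2 by 2 in each.

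The other imprinted snoRNA arrays of the human genome, on chromosome 14, were not named in the region lists. No region of either library names a SNORD113 or SNORD114 copy. The search was by name, so it does not show whether regions lie over those arrays. MEG3 of the same cluster was named by 2 control regions and 1 CXCL12 region, with a highest mean of 18.6 in the control library and 8.30 in the CXCL12 library. Regions elsewhere that name a snoRNA numbered 6 in the control library and 4 in the CXCL12 library, with means of 3.40 to 11.5 and 3.68 to 10.3, and were at most 8.0 and 7.6 kb long.

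In both arrays and both libraries the highest bin lay between copies and not over a snoRNA start, at 1354 and 1418 bp after a SNORD116 start and 1328 and 1394 bp after a SNORD115 start. These are 4 positions, noticed after the values were seen, and those over SNORD116 are 64 bp apart. With starts spaced by 1871 bp (SNORD116) and 1876.5 bp (SNORD115) at the median, most positions in the arrays lie away from a start. The observation is therefore no test.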
